A study of Mus musculus with 9 samples.

Results

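The postsynaptic density is the protein-rich layer under the membrane of excitatory synapses that holds glutamate receptors in place opposite the sites of transmitter release. The genes described here encode 34 of its scaffold, kinase and adhesion proteins, chosen by name, and all 34 were found among the 55335 lines of the deposited count table. They fall into membrane-associated guanylate kinases (Dlg1, Dlg2, Dlg3, Dlg4), Dlg-associated proteins (Dlgap1, Dlgap2, Dlgap3, Dlgap4), Shank and Homer scaffolds (Shank1, Shank2, Shank3, Homer2, Homer3), calmodulin pathway proteins (Camk2a, Camk2b, Camk2g, Nrgn), adhesion molecules (Nlgn1, Nlgn3, Lrrtm1, Lrrtm2, Lrrtm3, Lrrtm4, Lrfn1, Lrfn2, Adgrb1, Adgrb3), and signalling adaptors and GTPase regulators (Cnksr2, Iqsec1, Iqsec2, Kalrn, Baiap2, Sorbs2, Akap5). All 34 passed the filter on low counts, which left 21765 genes to test.

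The libraries hold RNA of mouse prelimbic cortex, part of the medial prefrontal cortex and of the circuits that modulate pain. The 9 mice formed 3 groups of 3: Sham/saline mice had a control operation and saline, SNI/saline mice had spared nerve injury and saline, and SNI/R-HNK mice had the injury and R-HNK at 10 mg/kg. R-HNK is, by the series title, a form of hydroxynorketamine, which is a metabolite of ketamine, and spared nerve injury is a partial lesion of the sciatic nerve used as a model of neuropathic pain. Tissue was taken on day 14 after surgery. Strain, sex and age are not given in the sources used here, and neither is the time between the last dose and dissection. The series title concerns the postsynaptic placement of AMPA receptors, and the comparisons below ask whether mRNAs of the scaffold that anchors them differed between the groups. RNA levels do not show how much protein lies at the synapse.

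In the scaffold, Dlg4 (PSD-95) and its relatives bind the tails of NMDA receptors and of AMPA receptor auxiliary subunits at the membrane. Dlg-associated proteins link these guanylate kinases to Shank proteins, and Homer proteins tie Shank to metabotropic glutamate receptors and calcium stores. CaMKII, built from Camk2 subunits, is the calcium-dependent kinase that starts long-term potentiation, and neurogranin (Nrgn) holds calmodulin until calcium rises. Neuroligins, LRRTM proteins and Lrfn (SALM) proteins reach across the cleft or along the membrane to organise the synapse, and several of them bind presynaptic neurexins or receptor phosphatases.

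Deposited counts summed to between 53624337 and 73586375 per library, and the 34 genes together took 1.31% to 1.5% of them. Markers of cortical excitatory neurons were plentiful in all 9 libraries, with Slc17a7, the vesicular glutamate transporter of these cells, between 1477 and 2089 CPM, each count scaled to a common library total. 4 libraries, Sham/saline replicates 2 and 3 and SNI/R-HNK replicates 1 and 3, were raised in markers of striatal medium spiny neurons. Drd2, the dopamine D2 receptor of such neurons, lay between 17.5 and 44.0 CPM in these 4 and between 1.23 and 1.72 CPM in the other 5. All 15 markers on the list were detected, and their summed level ran from 525 to 2142 CPM in Sham/saline, 480 to 532 CPM in SNI/saline and 496 to 1422 CPM in SNI/R-HNK libraries. The summed level of the 10 excitatory neuron markers was highest in SNI/saline libraries, at 3989 to 4043 CPM. It ran from 2890 to 3740 CPM in Sham/saline and from 3421 to 3748 CPM in SNI/R-HNK libraries. Because no SNI/saline library was raised, the level of striatal markers moved with the groups. The values of the leading members are therefore also given for the remaining 5 libraries or with a covariate for the striatal marker score. Other marker lists differed between SNI/saline and Sham/saline without overlap in their summed level. Meningeal fibroblast markers lay at 23.2 to 28.0 against 37.4 to 58.2 CPM, and astrocyte markers at 3053 to 3244 against 3295 to 3694 CPM. Interneuron markers lay at 883 to 923 against 965 to 1214 CPM, but did not all move together. Pvalb lay higher in SNI/saline, at 35.5, 42.4 and 38.25 CPM against 29.4, 22.8 and 16.0 CPM. Gad1 lay lower, at 267, 263 and 293 CPM against 345, 387 and 338 CPM. Gad2 was highest in Sham/saline replicates 2 and 3, at 261 and 260 CPM, which were raised in striatal markers. The mean log2 score of the myelin markers lay between 0.11 and 0.56 in the 4 libraries raised in striatal markers and between -0.54 and 0.01 in the other 5. The part of these lists in the results below was not tested. In bulk tissue, fewer cells of a type and less RNA per cell cannot be told apart.

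Levels can be set side by side between genes only per length, as CPM per kilobase of exon (CPM/kb). Nrgn was the most abundant member at 1058.5 ± 232 CPM/kb (SD over 9 libraries), followed by Camk2a, the alpha subunit of CaMKII, at 403 ± 26.3 CPM/kb. Dlgap3, known as SAPAP3, came next at 114 ± 7.77 CPM/kb, and the ranges of these 3 genes overlapped neither each other nor that of the gene below. From there the levels declined in small steps: Camk2b, Adgrb1, Baiap2, Shank1 and Dlg4 lay between 92.0 and 68.7 CPM/kb, and neighbours among them overlapped. The range of Dlg4 lay above that of the next gene, Dlgap4, at 43.9 CPM/kb.

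The median member stood at 25.4 CPM/kb. Within families the order was wide. Among guanylate kinases Dlg4 at 68.7 CPM/kb stood above Dlg3 at 36.5, Dlg2 at 24.7 and Dlg1 at 16.2 CPM/kb. Among Dlg-associated proteins Dlgap3 was followed by Dlgap4 at 43.9, Dlgap1 at 33.6 and Dlgap2 at 13.1 CPM/kb. Shank1 at 70.3 CPM/kb stood above Shank3 at 34.1 and Shank2 at 25.7 CPM/kb, while Homer2 gave 6.89 and Homer3 2.38 CPM/kb.

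Adhesion molecules other than Adgrb1 lay low in the order. They ran from 21.4 CPM/kb for Lrfn1 down to 4.64 CPM/kb for Nlgn1, with Lrrtm1 at 17.5, Nlgn3 at 15.1, Lrrtm2 at 14.7, Lrrtm3 at 11.9, Lrfn2 at 10.5, Adgrb3 at 5.38 and Lrrtm4 at 4.79 CPM/kb. Homer3 was the lowest member of all, and its libraries lay below every value of Nlgn1. Of the 33 pairs of neighbours in the order, 28 had overlapping ranges over the 9 libraries and 5 did not. These lengths count every annotated exon, so a gene whose long isoforms are not used in cortex is placed too low.

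**Figure D1:**
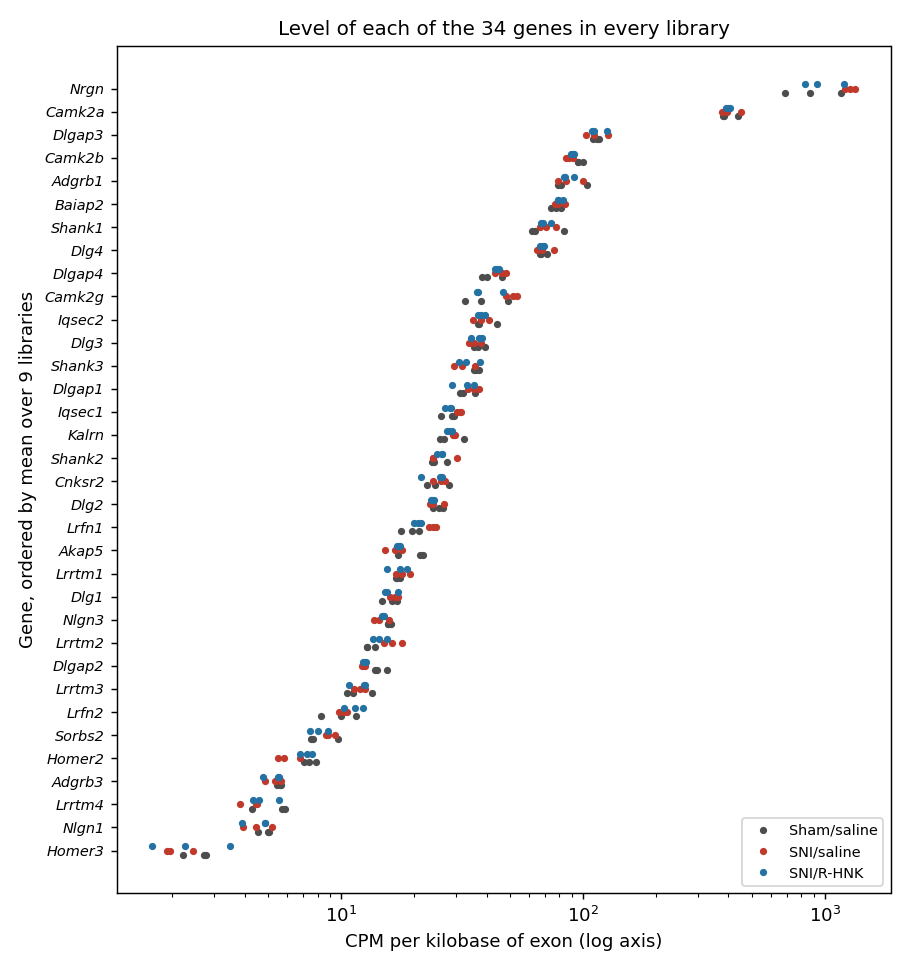
Level of each of the 34 genes in each of the 9 libraries, in CPM per kilobase of exon on a log axis, with genes ordered by their mean and points coloured by group. Nrgn and Camk2a stand apart at the top and Homer3 at the bottom, while most other genes overlap their neighbours and the 3 groups lie close together within each row.

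The first comparison, SNI/saline against Sham/saline, asks whether injury was accompanied by other levels of the scaffold mRNAs. None of the 34 genes passed edgeR's quasi-likelihood test at a Benjamini-Hochberg adjusted p under 0.05, in a comparison in which 1.07% of all tested genes passed. At an unadjusted p under 0.05 there were 10 members, 5 with higher and 5 with lower levels in SNI/saline, against 16.6% of all genes. The groups did not overlap in 4 members that lay higher and 3 that lay lower, and in each direction 10.9% of all tested genes were so separated. The median log2 fold change of the members was 0.02, beside -0.02 over all tested genes. The median size of the change regardless of sign was 0.09, beside 0.19 for all tested genes. For the 75 other genes described below this size was 0.10.

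The intervals bound how large a difference could have gone unseen. In 30 of the 34 members the 95% interval of the fold change lay inside 1.5-fold either way. This held for 48.8% of all tested genes, which were not matched to the members in read count. Among the 75 other genes described below it held for 69, so it is not particular to the members. The exceptions among the members were Lrrtm4, Camk2g, Nrgn and Homer3. For these 4 genes a larger difference was not excluded by the interval.

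Among guanylate kinases the groups lay close to each other. Dlg4 measured 945, 894 and 883 CPM in Sham/saline replicates 1 to 3, 1010, 899 and 856 CPM in SNI/saline, and 905, 880 and 915 CPM in SNI/R-HNK. The SNI/saline values enclosed all the others. Its log2 fold change between SNI/saline and Sham/saline was 0.02 ± 0.07 (SE), with a 95% interval from -0.13 to 0.18 and an edgeR adjusted p of 0.916 by Benjamini-Hochberg. The other 3 family members, Dlg1 (SAP97), Dlg2 (PSD-93) and Dlg3 (SAP102), had log2 fold changes of 0.05, -0.03 and -0.06.

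Of the Dlg-associated proteins, 1 of 4 had an unadjusted p under 0.05, against 16.6% of all tested genes. Dlgap2 measured 95.2, 86.4 and 85.1 CPM in Sham/saline, 77.0, 76.2 and 75.4 CPM in SNI/saline, and 78.0, 77.6 and 76.2 CPM in SNI/R-HNK. Every injured mouse, with or without R-HNK, lay below every Sham/saline mouse. SNI/saline differed by a log2 fold change of -0.22 ± 0.06 (SE), with an edgeR adjusted p of 0.113 by Benjamini-Hochberg, so it did not pass.

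Dlgap3 measured 529, 516 and 501 CPM in Sham/saline, 574, 503 and 468 CPM in SNI/saline, and 504, 493 and 570 CPM in SNI/R-HNK. Here the groups overlapped fully, and the log2 fold change for SNI/saline was -0.00 ± 0.08 (SE). Dlgap1 and Dlgap4 had log2 fold changes of 0.11 and 0.15, with edgeR adjusted p of 0.578 and 0.361 by Benjamini-Hochberg.

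Among the Shank and Homer scaffolds, Homer2 was the member with an unadjusted p under 0.05. It encodes a long Homer form with a coiled coil that links receptors into a lattice. Its level was 89.2, 93.1 and 99.4 CPM in Sham/saline, 85.4, 69.4 and 73.6 CPM in SNI/saline, and 85.5, 95.6 and 91.6 CPM in SNI/R-HNK. The SNI/saline libraries were the 3 lowest of the 9, although SNI/saline replicate 1 and SNI/R-HNK replicate 1 differed by less than 1 CPM. The log2 fold change was -0.30 ± 0.08 (SE), a ratio of 0.811 with a 95% interval from 0.715 to 0.920, and the edgeR adjusted p was 0.103 by Benjamini-Hochberg.

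Shank3, a master scaffold of the deep layer of the density, measured 327, 331 and 343 CPM in Sham/saline, 330, 290 and 270 CPM in SNI/saline, and 302, 283 and 344 CPM in SNI/R-HNK. SNI/saline replicate 1 lay among the Sham/saline values and the other two below them. On the log2 scale SNI/saline differed by -0.17 ± 0.09 (SE) with an edgeR adjusted p of 0.352 by Benjamini-Hochberg. Shank1 and Shank2 had log2 fold changes of 0.04 and 0.05. Homer3, between 5.71 and 11.9 CPM, had the widest spread within groups of all 34 genes, with a coefficient of variation of 24.0%, and a log2 fold change of -0.29 ± 0.23 (SE).

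In the calmodulin pathway, Camk2a measured 3286, 2841 and 2865 CPM in Sham/saline, 3367, 2962 and 2802 CPM in SNI/saline, and 2986, 2912 and 3027 CPM in SNI/R-HNK. The groups overlapped, with a log2 fold change of 0.02 ± 0.08 (SE) for SNI/saline. Camk2b, the beta subunit that ties the kinase to actin, gave 870, 911 and 871 CPM in Sham/saline, 834, 804 and 776 CPM in SNI/saline, and 837, 815 and 835 CPM in SNI/R-HNK. All 6 injured mice lay below the Sham/saline mice, and the SNI/saline log2 fold change was -0.14 ± 0.06 (SE), with an edgeR adjusted p of 0.277 by Benjamini-Hochberg.

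The 2 largest positive differences of the whole set were also in this pathway. Nrgn measured 1697, 1264 and 1000 CPM in Sham/saline, 1859, 1948 and 1769 CPM in SNI/saline, and 1208, 1752 and 1346 CPM in SNI/R-HNK. The 3 SNI/saline libraries lay highest, with SNI/R-HNK replicate 2 and Sham/saline replicate 1 close below, and the remaining 4 well below those. The log2 fold change was 0.49 ± 0.20 (SE), with an edgeR adjusted p of 0.257 by Benjamini-Hochberg.

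Camk2g, the gamma subunit of CaMKII, known to carry calmodulin towards the nucleus, was low in the same 4 libraries. It gave 314, 243 and 208 CPM in Sham/saline, 309, 328 and 342 CPM in SNI/saline, and 233, 300 and 236 CPM in SNI/R-HNK. Sham/saline replicate 1 overlapped the SNI/saline values. SNI/saline stood at a log2 fold change of 0.36 ± 0.14 (SE), with an edgeR adjusted p of 0.25 by Benjamini-Hochberg. The 4 low libraries were those with raised striatal markers. For the 2 genes, a covariate for the striatal score left a log2 fold change for SNI/saline of 0.12 for Nrgn and 0.04 for Camk2g. Without these 4 libraries, which leaves a lone Sham/saline mouse, it was 0.14 and 0.06.

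Among the 10 adhesion molecules, 2 lay higher and 1 lower at an unadjusted p under 0.05, against 16.6% of all tested genes. Lrfn1 (SALM2), which binds PSD-95 through its tail, measured 82.5, 77.1 and 69.2 CPM in Sham/saline, 97.2, 94.5 and 90.3 CPM in SNI/saline, and 81.7, 84.1 and 78.6 CPM in SNI/R-HNK. The SNI/saline values lay above all 6 others, which overlapped each other. Its log2 fold change of 0.30 ± 0.07 (SE), a ratio of 1.23 with a 95% interval from 1.10 to 1.38, had the lowest p of the set, 0.00131 unadjusted and 0.0712 adjusted (edgeR, Benjamini-Hochberg).

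Lrrtm2, a neurexin ligand that helps to hold AMPA receptors at the synapse, measured 77.5, 83.3 and 76.9 CPM in Sham/saline, 91.0, 97.6 and 108 CPM in SNI/saline, and 93.6, 86.4 and 81.5 CPM in SNI/R-HNK. All SNI/saline values lay above all Sham/saline values, and SNI/R-HNK replicate 1 lay among the SNI/saline ones. The log2 fold change was 0.32 ± 0.08 (SE), with an edgeR adjusted p of 0.0737 by Benjamini-Hochberg. The gene lies within the alpha-catenin gene Ctnna1 on the opposite strand, with overlapping exons, and the use of strand in counting is not stated in the sources used here. Ctnna1 itself had a log2 fold change of -0.08 ± 0.08 (SE) in the same comparison, with an edgeR adjusted p of 0.642 by Benjamini-Hochberg.

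Lrrtm4, the family member known to bind heparan sulfate proteoglycans, measured 26.3, 35.1 and 36 CPM in Sham/saline, 27.7, 23.5 and 27.3 CPM in SNI/saline, and 28.3, 34 and 26.6 CPM in SNI/R-HNK. Sham/saline replicate 1 lay within the SNI/saline range, so the groups overlapped. This made a log2 fold change of -0.31 ± 0.13 (SE), with an edgeR adjusted p of 0.249 by Benjamini-Hochberg. In the 5 libraries without raised striatal markers the log2 fold change was -0.00. There replicate 1 is the lone Sham/saline mouse, so this value restates its level and has no replicates on the Sham/saline side.

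Nlgn1, the neuroligin of excitatory synapses, gave 67.8, 66.8 and 60.7 CPM in Sham/saline, 59.7, 52.7 and 69.7 CPM in SNI/saline, and 65.4, 65.3 and 52.4 CPM in SNI/R-HNK. The 3 groups overlapped, and the SNI/saline log2 fold change was -0.10 ± 0.11 (SE). The remaining adhesion genes, Nlgn3, Lrrtm1, Lrrtm3, Lrfn2, Adgrb1 and Adgrb3, had log2 fold changes between -0.11 and 0.07.

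Of the 7 adaptors and GTPase regulators, Akap5 and Iqsec1 had an unadjusted p under 0.05, against 16.6% of all tested genes. Akap5 (AKAP79/150) anchors protein kinase A and calcineurin near AMPA receptors. Its level was 117, 145 and 150 CPM in Sham/saline, 122, 104 and 114 CPM in SNI/saline, and 119, 117 and 120 CPM in SNI/R-HNK. Sham/saline replicates 2 and 3 stood above all other libraries, and replicate 1 lay among the injured mice. The log2 fold change was -0.27 ± 0.09 (SE), with an edgeR adjusted p of 0.165 by Benjamini-Hochberg. It was -0.04 in the fit that left out the 4 libraries with raised striatal markers, Sham/saline replicates 2 and 3 included. That fit keeps replicate 1 as the lone Sham/saline mouse, so its value restates the level of that library.

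Iqsec1, an exchange factor for the GTPase Arf6, measured 341, 334 and 302 CPM in Sham/saline, 361, 352 and 365 CPM in SNI/saline, and 311, 331 and 328 CPM in SNI/R-HNK. The SNI/saline values lay above all others, with a log2 fold change of 0.14 ± 0.06 (SE) and an edgeR adjusted p of 0.295 by Benjamini-Hochberg. Cnksr2, Iqsec2, Kalrn, Baiap2 and Sorbs2, which include the Rac exchange factor kalirin and the actin regulator IRSp53, had log2 fold changes between -0.05 and 0.11.

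**Figure D2:**
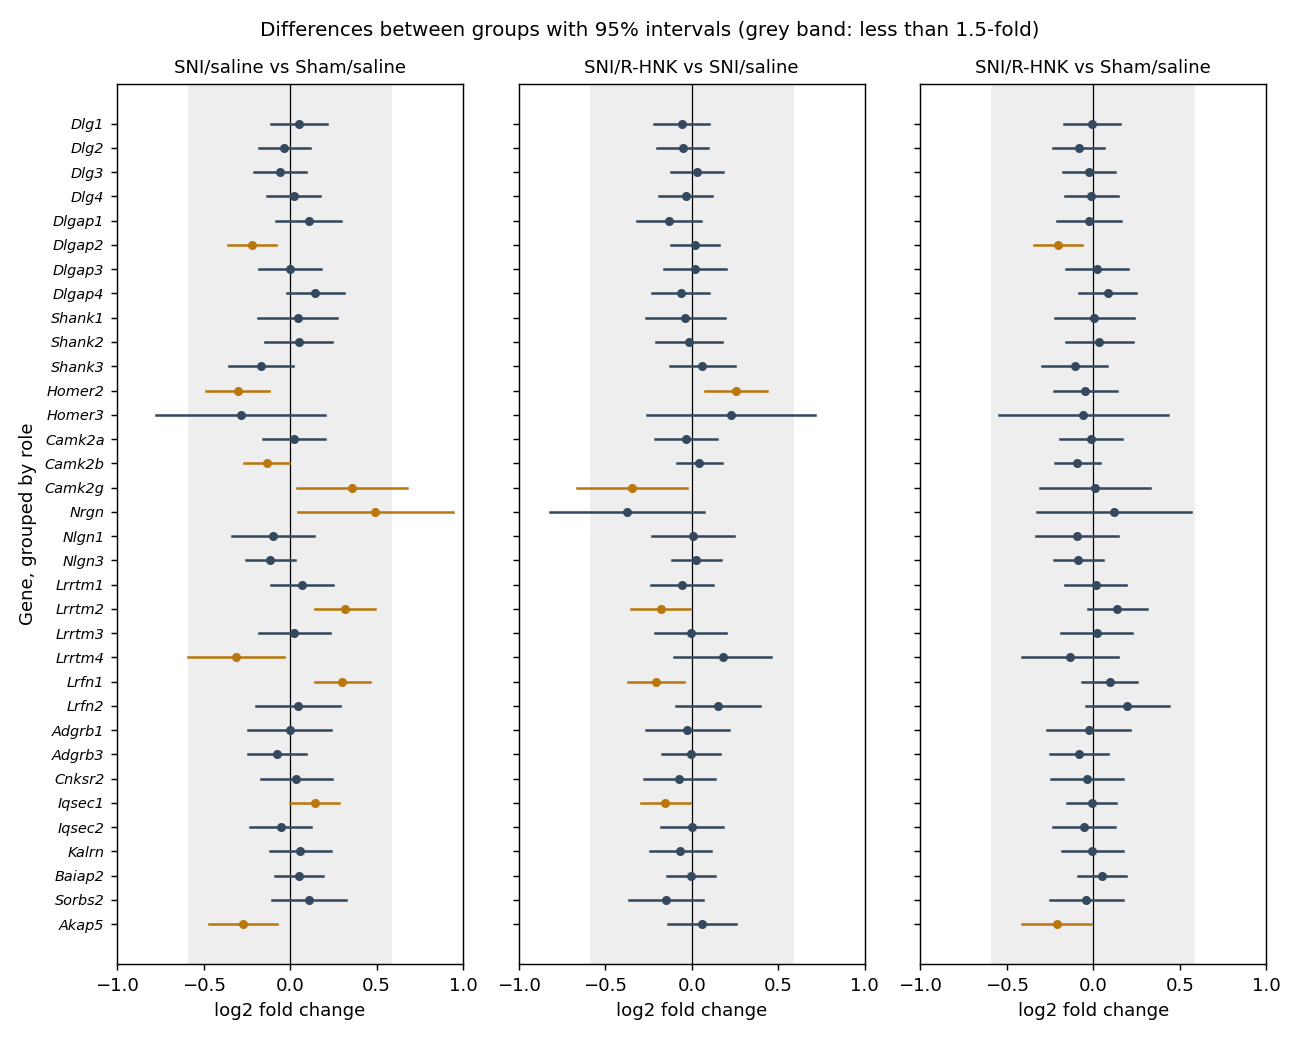
Log2 fold change of each of the 34 genes in the 3 comparisons (points) with 95% intervals (bars) from edgeR, where the grey band marks changes of less than 1.5-fold either way and orange marks an unadjusted p under 0.05. Most intervals lie inside the band in every panel, those of Nrgn, Camk2g and Homer3 are the widest, and no gene passed the adjusted threshold.

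**Figure D3:**
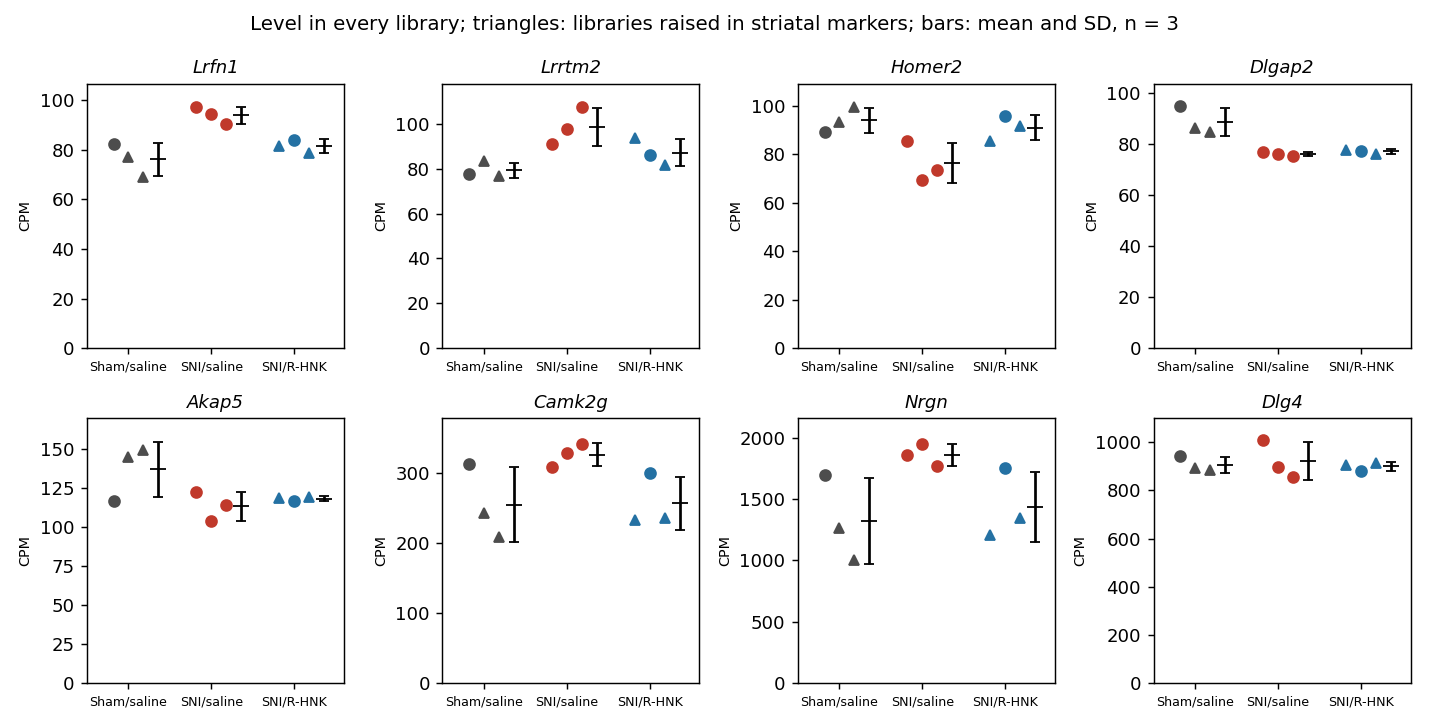
Level in CPM of 8 genes in every library by group, with triangles for the 4 libraries raised in striatal markers and bars for the mean and SD of the 3 mice of a group. The SNI/saline points lie above all others for Lrfn1 and below all others for Homer2, those for Lrrtm2 lie above all Sham/saline points and overlap SNI/R-HNK, Dlgap2 separates Sham/saline from all injured mice, and for Camk2g and Nrgn the triangles lie below the circles.

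Outcomes at the edge of the threshold depended on the tool and on 1 library. DESeq2 called Lrfn1 (adjusted p = 0.00774), Lrrtm2 (0.0103), Homer2 (0.0276) and Dlgap2 (0.0345), in a fit that called 1185 genes in all. With limma-voom and quality weights, 6 members passed, in a fit that called 1051 genes in all: Lrfn1, Lrrtm2, Homer2, Nrgn, Akap5 and Camk2g. Without Sham/saline replicate 1, which is the Sham/saline library not raised in striatal markers, edgeR called Lrfn1, Akap5, Camk2g, Nrgn and Lrrtm4. That fit called 1170 genes in all, against 233 in the reported fit. Over the 18 other settings tried, the adjusted p ran from 0.00774 to 0.711 for Lrfn1, from 0.0103 to 0.416 for Lrrtm2, from 0.0276 to 0.721 for Homer2 and from 0.0345 to 0.365 for Dlgap2. Each of these 4 genes kept the sign of its difference in all 18. Their SNI/saline and Sham/saline values did not overlap, so most refits of the same libraries could hardly turn it. The kept sign is therefore no evidence of a stable difference.

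The other settings counted above already include the striatal covariate and the fit without the 4 raised libraries, so the signs below are no further evidence. Both settings concern the striatal markers, and differences in the other marker lists were not adjusted for. Under the striatal covariate the log2 fold change for SNI/saline was 0.20 for Lrfn1, 0.33 for Lrrtm2, -0.28 for Homer2 and -0.29 for Dlgap2. Without the 4 raised libraries, which leaves a lone Sham/saline mouse assumed to vary like the others, it was 0.19, 0.36, -0.22 and -0.31. No member passed the adjusted threshold under either setting, with a lowest edgeR adjusted p of 0.196 and 0.365 by Benjamini-Hochberg, both for Dlgap2. The median over the 34 members turned from 0.02 to -0.07 with the covariate and to -0.05 without the 4 libraries.

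The second comparison, SNI/R-HNK against SNI/saline, asks whether R-HNK was accompanied by other levels in injured mice. It uses the same SNI/saline libraries as the first, so opposite signs in the pair of comparisons are no independent evidence of a return towards Sham/saline. No member passed the adjusted threshold, as against 0.119% of all tested genes. An unadjusted p under 0.05 was found for 5 members, 1 higher and 4 lower in SNI/R-HNK, against 7.47% of all genes. The groups did not overlap for 1 member that lay higher (Homer2), against 7.15% of genes, and for 5 that lay lower (Lrfn1, Camk2g, Iqsec1, Nrgn and Kalrn), against 6.59% of genes. In 31 of 34 members the 95% interval lay inside 1.5-fold either way. This held for 70 of the 75 other genes described below and for 51.5% of all tested genes. The exceptions among the members were Nrgn, Camk2g and Homer3.

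Homer2 had the lowest p of the members in this comparison. Its log2 fold change was 0.26 ± 0.08 (SE), a ratio of 1.19 with a 95% interval from 1.05 to 1.35, and the edgeR adjusted p was 0.524 by Benjamini-Hochberg. The log2 fold change lay between 0.19 and 0.34 under all 18 other settings, including 0.24 with the striatal score as a covariate. As the groups did not overlap, most refits of the same libraries could hardly turn its sign. Homer2 passed in none of them, with a lowest adjusted p of 0.244 by limma-voom with quality weights. Among the 4 members with an unadjusted p under 0.05 on the lower side, the log2 fold changes were -0.21 for Lrfn1, -0.18 for Lrrtm2, -0.15 for Iqsec1 and -0.35 for Camk2g. Their edgeR adjusted p lay between 0.583 and 0.643 by Benjamini-Hochberg.

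Nrgn gave a log2 fold change of -0.37 ± 0.20 (SE), the largest of the set in size. With the striatal score as a covariate the value for Nrgn was -0.12 and that for Camk2g -0.13, while that for Lrfn1 was -0.14. Without the 4 raised libraries a lone SNI/R-HNK mouse remained, assumed to vary like the others. The values were then -0.09 for Nrgn, -0.12 for Camk2g, -0.17 for Lrfn1, -0.20 for Lrrtm2, -0.12 for Iqsec1 and 0.32 for Homer2. Dlg4, Camk2a, Dlgap3, Shank3 and Nlgn1 had log2 fold changes of -0.03, -0.03, 0.02, 0.06 and 0.01. The interval for Dlg4, from -0.19 to 0.12, and that for Camk2a, from -0.21 to 0.15, bound the difference between saline and R-HNK in injured mice at these levels of spread. The median over the 34 members was -0.02, beside 0.01 over all tested genes.

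The third comparison, SNI/R-HNK against Sham/saline, asks how far injured mice given R-HNK stood from controls. No member passed, and 1 gene in the whole table did (0.00459% of those tested). Dlgap2 and Akap5 had an unadjusted p under 0.05, both lower in SNI/R-HNK, against 3.53% of all genes. No member lay higher without overlap, against 4.43% of all genes, and 3 lay lower without overlap (Dlgap2, Camk2b and Nlgn3), against 4.42%. In all 34 members the 95% interval lay inside 1.5-fold either way, as for 71 of the 75 other genes described below and for 53.9% of all tested genes.

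Dlgap2 differed from Sham/saline in SNI/R-HNK by a log2 fold change of -0.20 ± 0.06 (SE), with an edgeR adjusted p of 1 by Benjamini-Hochberg. The log2 fold change in SNI/R-HNK against SNI/saline was 0.02, with a 95% interval from -0.12 to 0.16. Both injured groups share the same 3 Sham/saline controls, so their differences from Sham/saline are not independent of each other. Under the striatal covariate the difference of Dlgap2 from Sham/saline was -0.22, and without the 4 raised libraries -0.29. Leaving out those libraries sets a lone SNI/R-HNK mouse against a lone Sham/saline mouse, so such values have no replicates on either side. Akap5 had a log2 fold change of -0.21 ± 0.09 (SE), which was -0.15 under the covariate and -0.00 without the 4 raised libraries. Camk2b and Nlgn3 each gave -0.09, and -0.09 and -0.07 without those libraries. For Nlgn3, which acts at excitatory and inhibitory synapses, the levels were 145, 146 and 150 CPM in Sham/saline, 147, 127 and 133 CPM in SNI/saline, and 137, 138 and 139 CPM in SNI/R-HNK.

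On the higher side, the adhesion genes Lrfn2 and Lrrtm2 had the smallest p. Lrfn2 (SALM1), which binds NMDA receptors and PSD-95, measured 36.8, 26.4 and 32.0 CPM in Sham/saline, 33.9, 33.0 and 31.3 CPM in SNI/saline, and 39.6, 33.0 and 36.6 CPM in SNI/R-HNK. The groups overlapped. For Lrfn2 the log2 fold change against Sham/saline was 0.20 ± 0.11 (SE), and 0.17 under the striatal covariate. Without the 4 raised libraries, a lone mouse against a lone mouse, it was -0.16, with the sign turned. For Lrrtm2 it was 0.14 ± 0.08 (SE), and 0.14 and 0.16 under the same settings. When the 3 groups were tested together for any difference, no member passed, as against 0.381% of all tested genes, and 6 members had an unadjusted p under 0.05, against 10.9% of all tested genes. They were Lrfn1, Lrrtm2, Dlgap2, Homer2, Akap5 and Camk2g, with the lowest edgeR adjusted p at 0.199 for Lrfn1 by Benjamini-Hochberg.

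Members were also compared between the 4 libraries with raised striatal markers and the other 5. In those 4, 6 of the 34 members lay below all 5 other libraries and none lay above. Over all tested genes, 4.26% were lower in this way and 5.12% higher. No test was made of this split, which was drawn from the data.

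Nrgn lay between 1000.2 and 1346 CPM in the 4 libraries and between 1697 and 1948 CPM in the other 5. Camk2g lay between 208 and 243 CPM, as against 300.5 to 342 CPM. The other 4 members were Sorbs2 (207 to 223 against 241 to 272 CPM), Lrfn1 (69.2 to 81.7 against 82.5 to 97.2 CPM), Dlgap1 (514 to 592 against 602 to 669 CPM) and Kalrn (615 to 671 against 690 to 778 CPM). Of these 6, Nrgn and Camk2g had the lowest ratios of means, 0.667 and 0.723, and the remaining 4 lay between 0.841 and 0.903. The part of tissue makeup in these values was not tested. The striatal covariate is partly tied to the groups, since no SNI/saline library was raised in these markers. The fits without the 4 libraries keep a lone mouse in Sham/saline and in SNI/R-HNK. Neither setting can tell tissue makeup from group.

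**Figure D4:**
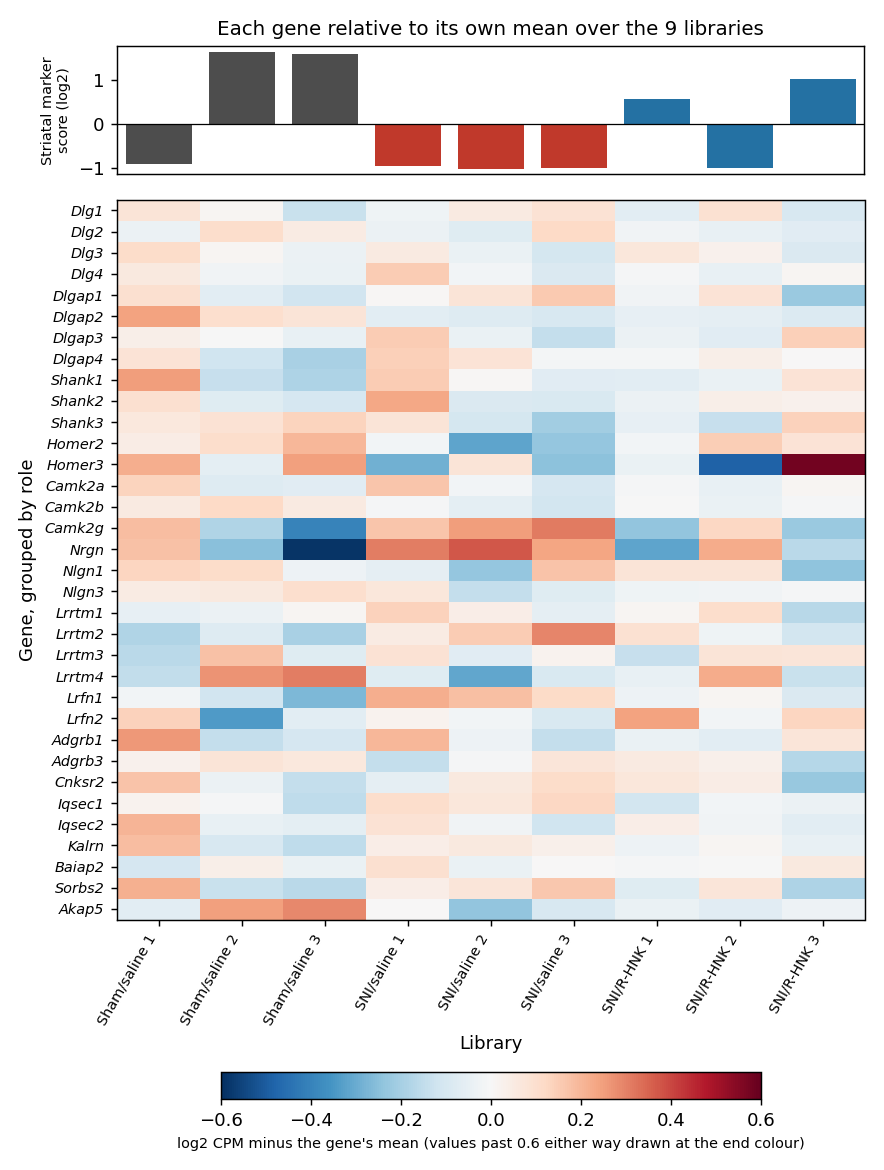
Level of each of the 34 genes in each library as log2 CPM minus the gene's own mean over the 9 libraries (colour), with the striatal marker score of each library as bars on top. Nrgn and Camk2g are low in the 4 libraries with a positive score, Lrrtm4 and Akap5 are high in Sham/saline replicates 2 and 3, and most other genes stay near their mean.

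A list of 75 other genes, mainly of the excitatory postsynaptic density and of trans-synaptic adhesion, was tested beside them. All passed the filter, although the least abundant had only 2 to 16 counts per library. None of the 75 passed in any of the 3 comparisons or in the test of any difference. In SNI/saline against Sham/saline, 14 had an unadjusted p under 0.05, 5 with higher and 9 with lower levels, against 16.6% of all tested genes, and the median log2 fold change was 0.00. The lowest p belonged to Flrt3, an adhesion ligand of latrophilins, which measured 26.3, 31.1 and 32.2 CPM in Sham/saline, 23.8, 21.5 and 19.8 CPM in SNI/saline, and 29.2, 27.9 and 24.4 CPM in SNI/R-HNK. All SNI/saline values lay below all others. Its log2 fold change was -0.46 ± 0.11 (SE), with an edgeR adjusted p of 0.0604 by Benjamini-Hochberg, and -0.27 without the 4 raised libraries.

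The next 3 genes by p were Lin7b, a small scaffold of the CASK complex, Ptprf, a presynaptic receptor phosphatase, and Camk2d, the delta subunit of CaMKII. Their log2 fold changes were 0.31, -0.27 and -0.32, with edgeR adjusted p of 0.0903, 0.106 and 0.109 by Benjamini-Hochberg. Without the 4 raised libraries the log2 fold changes were 0.20 for Lin7b, -0.26 for Ptprf and -0.14 for Camk2d.

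Homer1, whose short form is induced by activity and uncouples the long Homer proteins, measured 287, 253 and 199 CPM in Sham/saline, 356, 297 and 368 CPM in SNI/saline, and 215, 305 and 230 CPM in SNI/R-HNK. All SNI/saline values lay above all Sham/saline values, in the opposite direction to Homer2. The difference came to a log2 fold change of 0.47 ± 0.16 (SE), with an edgeR adjusted p of 0.198 by Benjamini-Hochberg, and 0.18 with the striatal score as a covariate. The gene table sums the short and long forms.

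In SNI/R-HNK against SNI/saline, 3 of the 75 had higher and 2 lower levels at an unadjusted p under 0.05, against 7.47% of all tested genes. By p these were led by Flrt3, at a log2 fold change of 0.32, the kinase anchor Akap12 at -0.24, Homer1 at -0.45 and Camk2d at 0.22. In SNI/R-HNK against Sham/saline there were 2, against 3.53% of all tested genes, both lower: the latrophilin Adgrl3 at -0.17 and neurabin (Ppp1r9a) at -0.17. In the 4 libraries raised in striatal markers, 13 of the 75 genes lay lower without overlap, against 4.26% of all tested genes, and 5 lay higher, against 5.12%.

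The members lie on many chromosomes. On GRCm38, in GENCODE M21, Lrfn1 lies on chromosome 7 from 28451980 to 28468242 (plus strand), Homer2 on chromosome 7 from 81600481 to 81707527 (minus strand), Dlgap2 on chromosome 8 from 14095865 to 14847680 (plus strand), Nrgn on chromosome 9 from 37544492 to 37552904 (minus strand) and Camk2g on chromosome 14 from 20734875 to 20794088 (minus strand). Of the 34 genes, 15 have exons that overlap those of another annotated gene, 12 of them on the other strand. Besides Lrrtm2 with Ctnna1, the low-count Homer3 overlaps the RNA helicase gene Ddx49, whose own log2 fold change between SNI/saline and Sham/saline was 0.10 ± 0.10 (SE). For these genes reads of the pair cannot be told apart if counting ignored strand.

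RefSeq promoter windows from 250 bases before to 50 after a start, on GRCm38, were at hand for 24 of the 34 genes, in 41 windows. Letter patterns were searched on both strands. The GC box, GGGCGG, was in 19 windows (46.3%), beside 35.7% of 32851 windows of all genes, and the TATA box, TATAAA, in 5 (12.2%), beside 13.6%. The cAMP response element TGACGTCA and the AP-1 pattern TGANTCA were in none of the 41, beside 1.79% and 7.81% of all windows. These are counts of letters in a fixed window and say nothing of a factor's binding.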

How the data were processed

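Bulk RNA of mouse prelimbic cortex was sequenced in 9 mice, 3 per group. TRIzol, an RNeasy kit and an Illumina NovaSeq were used, per the labels. HISAT2 2.0.5, featureCounts 1.5.0-p3 and mm10 are listed in the submitters' processing notes. The authors deposited 1 table of expected counts (estimated read counts per gene symbol, whole numbers, not normalized), whose name gives StringTie in place of featureCounts. Strand and pair counting are not given in the sources used here.

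All 34 members were taken by symbol. Counts were fitted in R 4.3.3 with edgeR 4.0.16 (filterByExpr, TMM factors 0.979 to 1.03, robust quasi-likelihood F-test, 1 fit over all 9 libraries), with Benjamini-Hochberg adjustment over 21765 genes and a threshold of 0.05. CPM use TMM-scaled totals, and SE and 95% intervals come from the test statistic. With 3 against 3 mice an exact permutation test cannot go below 0.1. Totals of 53624337 to 73586375 counts put sampling error of most members below the spread between mice. The biological coefficient of variation per member ran from 0.066 for Camk2b to 0.208 for Homer3, and the common value over all genes was 0.203. Libraries within a group differed by more than sampling noise. The scripts were tested on simulated counts.

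Alternatives were RLE and upper quartile scaling, limma-voom with quality weights (limma 3.58.1), DESeq2 1.42.0, no filter, replicate number as a block, only the compared groups, and leaving out each library. Fits without the 4 libraries of raised striatal markers and the striatal marker score (mean log2 level of 15 markers) as a covariate were added after seeing the data. The 34 members, the list of 75 partners, the marker lists and the tests were chosen with earlier results of these data known.

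All 34 members are named. Values in every library are given for Dlg4, Dlgap3, Shank3, Camk2a and Nlgn1 and for up to 6 members with the smallest p per comparison. Of the partners, Homer1 and the 4 with the smallest p per comparison are named, and a further partner covered by the naming rule is not reported here. Lengths and overlaps come from GENCODE M21 and promoter windows from RefSeq (GRCm38). Splicing and protein were not analysed here.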

Additional observations from a re-analysis of the deposited data

How the results depend on the processing

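No member passed in SNI/R-HNK against SNI/saline or against Sham/saline under any of the 18 other settings. In SNI/saline against Sham/saline, 0 members passed in the reported fit, 4 with DESeq2 and 6 with limma-voom with quality weights, and leaving out each library in turn gave 0 to 5, with 5 only without Sham/saline replicate 1. For any difference among the 3 groups the count was 2 with DESeq2, and 0 to 3 on leaving out each library, with 3 without the same library. Over the whole table that test called 667 genes with DESeq2 and 528 without Sham/saline replicate 1, against 83 in the reported fit. Of the 75 partner genes, 1 passed in SNI/saline against Sham/saline with no filter on low counts, 7 with DESeq2, 7 with limma-voom with quality weights, and 0 to 5 on leaving out each library. For any difference, 2 partner genes passed with DESeq2 and 0 to 2 on leaving out each library. In SNI/saline against Sham/saline many more genes passed over the whole table in these fits, 1185 with DESeq2, 1051 with limma-voom and 1170 without Sham/saline replicate 1, against 233 in the reported fit, and the cause was not tested. No called value changed sign. The median over the members in SNI/R-HNK against Sham/saline was 0.04 without Sham/saline replicate 1, against -0.02. RLE and upper quartile scaling, and the fit of only the compared groups, changed no call.

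Replicate numbers are shared between the groups, but the labels do not say that a number marks a pair, and same-numbered libraries correlated between -0.104 and 0.0917 in their deviations from the group means. With replicate number as a block, 0 members passed in each comparison, and 162 genes passed in SNI/saline against Sham/saline.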
